A study of Mus musculus with 16 samples.

Results

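The comparison described here asks whether loss of Cpeb2 changed RNA levels differently in the Sca1-positive luminal cells of the mouse mammary gland than in the other epithelial cells. It used all 16 arrays of the series, 8 from Sca1-positive cells and 8 from the other cells. The Sca1-positive cells were non-clonogenic luminal cells (NCL, sorted as Sca1 positive and CD49b negative) and ductal progenitors (DP, positive for both antigens). The other cells were alveolar progenitors (AP, Sca1 negative and CD49b positive) and myoepithelial cells (Myo, sorted as Epcam low and CD49f high). For each gene the knockout minus wild-type difference was taken in each population. The mean of the NCL and DP differences minus the mean of the AP and Myo differences is called the contrast below. A positive contrast means that the knockout value was higher, relative to wild type, on the Sca1-positive side. Values are log2 levels, where 1 unit is a 2-fold change, and each is followed by its standard error from the fit.

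All 4 mice were females aged 10 weeks, of the mixed strain labelled C57BL/6J 129 and the line labelled DMI, and 2 mice carried each genotype. The knockout mice were Cpeb2 -/- and the wild-type mice Cpeb2 +/+. The labels give Sox2-Cre +/+ for both and do not say how +/+ is to be read for the Cre. Sox2-Cre acts in the early embryo, so the deletion is not restricted to the mammary gland. Every mouse gave all 4 populations. Knockout mouse 1 and wild-type mouse 1 had the same parents, and so did knockout mouse 2 and wild-type mouse 2. The number of mice limits the precision of every value below.

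CPEB proteins bind cytoplasmic polyadenylation elements near the 3′ ends of messenger RNAs, and through them poly(A) tail length and translation are adjusted. An array reads RNA levels only, so an effect on translation is not seen here. In the mammary gland, the Sca1-positive luminal cells include the hormone-sensing cells, which carry the estrogen and progesterone receptors and release paracrine signals such as RANKL. Alveolar progenitors give rise to the milk-secreting cells, and myoepithelial cells form the contractile outer layer.

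The sorted populations carried the markers of their labels. The basal genes Krt5, Krt14, Acta2, Myh11 and Trp63 read 11.80 or more in all 4 myoepithelial arrays. The hormone-sensing genes Esr1 and Foxa1 were high in NCL and DP of both genotypes, with Esr1 at 10.61 to 12.04 there and at 7.02 to 8.60 in AP and Myo. The alveolar progenitor genes Kit and Elf5 were highest in AP, where Kit read 10.50 to 11.08. Ductal progenitors also carried Kit, at 9.07 and 9.0 in the wild-type mice and 6.73 and 7.82 in the knockout mice, and Elf5, at 10.27 and 9.13 against 7.66 and 8.52. Kit fell by 1.76 in DP (adjusted p = 0.00732) and Elf5 by 1.61 (adjusted p = 0.0263). The part of these lower alveolar markers in the results below was not tested. In sorted populations measured as a whole, fewer cells of a type and less RNA per cell cannot be told apart. In NCL, Kit read 4.41 to 4.67 in all 4 mice. The sort antigen genes Epcam, Itga6 (CD49f) and Itga2 (CD49b) had contrasts of -0.04 ± 0.09, 0.26 ± 0.20 and -0.53 ± 0.24, none past the threshold of an adjusted p of 0.05. Sca1 itself was not analysed here.

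Cpeb2 RNA was high in the cells on the Sca1-positive side of wild-type mice and lower in the knockout. Its brightest probe set read 8.33 and 8.66 in wild-type NCL and 7.88 and 8.00 in wild-type DP. In the knockout it read 6.42 and 7.67 in NCL and 6.39 and 7.35 in DP. In AP the wild-type mice read 5.52 and 5.53 and the knockout mice 5.45 and 4.81, and in Myo 5.41 and 6.03 against 5.25 and 4.71. The genotypes did not overlap in any population, but the AP and Myo values lay close to 5.12, the lower quartile of all probe sets, which is used here as the mark of a level near background. Cpeb2 fell by 1.26 ± 0.29 on the Sca1-positive side (adjusted p = 0.0144), and the difference of -0.57 on the other side was not past the threshold (adjusted p = 0.392). The contrast itself was -0.70 ± 0.40 (adjusted p = 0.288). Its direction rested on 1 mouse, since it was 0.15 with knockout mouse 1 left out and -1.55 with the other knockout mouse left out. No source used here places the probe sets against the deleted exons, so Cpeb2 RNA in the knockout is no measure of how complete the deletion was. The dimmer probe sets of Cpeb2 gave contrasts of -0.22 ± 0.32 and -0.19 ± 0.31.

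Cpeb4, a family member that binds the same kind of element, had a contrast past the threshold. It read 8.74 and 8.71 in wild-type NCL against 8.83 and 7.78 in the knockout, and 8.76 and 8.93 against 8.06 and 7.67 in DP. In AP it read 6.82 and 8.02 in wild type and 8.52 and 8.48 in the knockout, and in Myo 6.28 and 6.84 against 7.42 and 6.99. Cpeb4 was thus lower in knockout DP and higher in knockout AP and Myo, with no overlap in those populations and with overlap in NCL. The contrast was -1.56 ± 0.37 (adjusted p = 0.0390), while neither side alone passed the threshold (-0.70 and 0.86). Its other probe sets gave -0.77 and 0.05, neither past the threshold over all probe sets, so the probe sets of Cpeb4 disagree. The contrast was -1.16 without wild-type mouse 1 (adjusted p = 0.156), -1.81 without knockout mouse 1 (adjusted p = 0.233) and -1.32 without knockout mouse 2 (adjusted p = 0.319). Cpeb3 had a contrast of 0.15 ± 0.16, and Cpeb1, whose mean lay near background on both sides, one of -0.40 ± 0.18. Neither passed the threshold. Tnfsf11, which encodes RANKL, read 5.01 to 5.54 in all arrays, close to background, with a contrast of -0.07 ± 0.14.

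Across the 17097 genes measured, 806 had a contrast past the threshold, which is 4.71% of the genes tested. The contrast was positive for 371 of them (2.17%) and negative for 435 (2.54%). The knockout effect alone passed the threshold for 2916 genes on the Sca1-positive side (17.1%), 1317 of them higher and 1599 lower. On the other side 354 genes passed (2.07%), 123 higher and 231 lower. This order turned with wild-type mouse 1 left out, with 995 genes on the Sca1-positive side and 1228 on the other, and with the RNA integrity covariate described below the counts were 247 and 225. Of the 806 genes, 578 passed the threshold on the Sca1-positive side alone and 96 on the other side alone. A further 4 passed on both sides in opposite directions and 5 on both sides in the same direction. The remaining 123 passed on neither side, and in each of them the sides had opposite signs. Altogether 644 of the 806 had opposite signs on the sides, and in 595 the larger effect was on the Sca1-positive side. The contrast reached 2-fold in 306 of the 806, 104 positive and 202 negative. Near background on the AP and Myo side were 59 of the 806 genes (7.32%), against 16.4% of all genes. The 200 measured genes nearest to Cpeb2 in gene order held 5 of the called genes, beside 4.71% called among all genes.

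**Figure D1:**
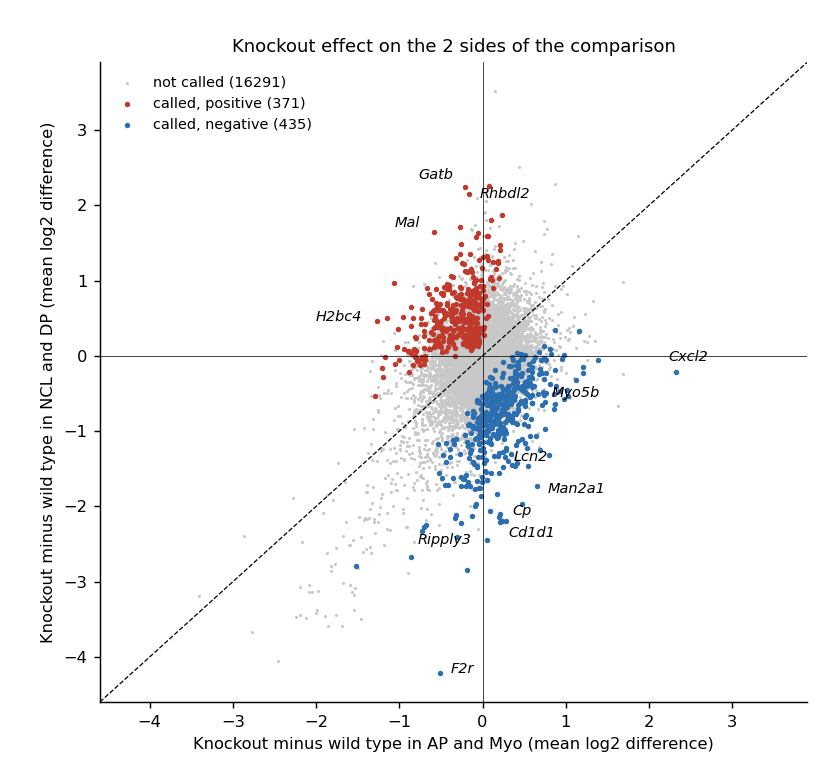
Each point is a gene, with its mean knockout minus wild-type difference in AP and Myo on the horizontal axis and in NCL and DP on the vertical axis (log2), and the dashed line marks equal effects. The 371 red and 435 blue genes had a contrast past the threshold. Most lie along the vertical axis, and Cxcl2 stands apart on the horizontal axis at 2.33.

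The number of called genes rested on single mice. Without knockout mouse 2 the fit called 1 gene, which was not among the 806 (Egfl6, named here after its value was seen, -0.90 ± 0.07). No gene called below was therefore past the threshold without knockout mouse 2. Leaving out knockout mouse 1 gave 22 calls, wild-type mouse 1 138 calls and wild-type mouse 2 2632 calls, of which 9, 81 and 671 were among the 806. When each mouse gave only 1 value, its mean of NCL and DP less its mean of AP and Myo, limma called 0 genes, with 2666 at an unadjusted p under 0.05 against 4328 in the fit over arrays. With 2 mice against 2, an exact two-sided permutation test cannot go below p = 0.333. With the parent pair as a block within each population the count was 173. In all 806 genes the per-mouse values did not overlap between genotypes, which held for 53.1% of all genes. The contrast is the mean of these values in the knockout less that in wild type. The lack of overlap in called genes thus mostly follows from the call and is no separate support.

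RNA integrity was read from control transcripts probed at their 3′ end and in their middle, as the 3′ log2 signal minus the middle signal. For Gapdh the mean of this measure over NCL and DP less that over AP and Myo was 0.37 and 0.20 in the wild-type mice and -0.06 and -0.11 in the knockout mice. For actin it was 0.17 and 0.32 against 0.10 and 0.03. With this measure as a covariate, 2 genes were called, Cd1d1 at -2.14 ± 0.25 (adjusted p = 0.0410) and Ripply3 at -2.78 ± 0.33 (adjusted p = 0.0410). The 806 contrasts all kept their sign, with a median of 0.785 of their size and a median standard error of 0.257 in place of 0.195. Of the 90 called genes that the naming rule gave, 27 moved by over 1.5 times. Among these, Tgfbr1 came to -0.51, Gdap1l1 to 0.51, Scamp4 to 0.65, Galnt18 to 0.66, H2bc4 to 0.97, Cad to 0.99 and F2r to -2.40. The others were Cpeb4, Gadd45g, Dus2, Cdh13, Tenm4, Selenop, Man2a1, Tigar, Prom2, Dll4, Ebp, Sc5d, Pkm, Psmb8, Psmb10, Tent4b, Pabpc1, Bcl2l1, Myo5b and Smpdl3a, all smaller with the covariate. Of 67 measured markers of other cell types, 3 were called (4.48%), beside 4.71% of all genes. The mean level of the 12 measured fibroblast markers, NCL and DP less AP and Myo, was 0.60 and 0.41 in the wild-type mice and 0.18 and 0.23 in the knockout mice, and 1 of the 12 was called, Dcn at -1.67 ± 0.43. The collagen gene Col3a1 read 11.40 and 9.72 in wild-type DP and 9.15 and 8.90 in the knockout. The same mean was 0.12 and 0.01 against -0.01 and -0.35 for the 15 endothelial markers, of which 0 were called. It was -0.17 and -0.12 against -0.01 and -0.02 for the 21 leukocyte markers, of which 1 was called, Tyrobp at 0.37 ± 0.08. The 7 adipocyte markers, the 7 pericyte markers and the 5 red cell markers had 0, 1 (Mcam, -0.51 ± 0.13, and -0.33 without knockout mouse 1) and 0 called. The pan-leukocyte gene Ptprc read 3.81 to 3.98 and Adipoq 4.11 to 4.39 in all arrays, both at the bottom of the scale, and Pdgfra read 4.67 to 4.85. What part RNA quality and other cells have in the results was not tested.

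In the Sca1-positive cells of the knockout, the smallest p-values of the contrast belonged to genes that fell there and had no difference past the threshold in AP or Myo. Cd1d1, which presents lipid antigens to natural killer T cells, read 10.05 and 9.84 in wild-type NCL and 7.85 and 7.28 in the knockout, and 9.67 and 9.55 against 7.6 and 7.53 in DP. In AP and Myo it read 7.08 to 7.99 in all 8 arrays. Wild-type NCL and DP stood above all other arrays, and the knockout values lay within the range of the other cells. The contrast was -2.42 ± 0.19 (adjusted p = 0.000417), and a further probe set gave -2.63 ± 0.22. Without a single mouse the adjusted p was 0.00117 to 0.0115, except without knockout mouse 2, where it was 0.0657.

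Ripply3, a partner of T-box transcription factors that turns them to repression, read 7.90 and 7.35 in wild-type NCL and 4.99 and 5.48 in the knockout, and 8.08 and 7.57 against 5.16 and 5.47 in DP. Its AP and Myo values were 4.78 to 5.87, near background in both genotypes. The contrast was -2.49 ± 0.23 (adjusted p = 0.00169), and since the knockout mean of 5.28 is itself near background, the fall may be larger than measured. Hsd11b2, the enzyme that inactivates corticosterone, followed the same course: 8.05 and 7.79 in wild-type NCL against 6.21 and 6.10, 7.70 and 7.41 in wild-type DP against 6.23 and 6.00, and 5.78 to 6.37 elsewhere. Its contrast was -1.60 ± 0.16 (adjusted p = 0.00173). The kallikrein gene Klk1b1 had a contrast of -1.03 ± 0.11, but the kallikrein 1b genes are near-identical copies that an array may not tell apart.

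Lcn2, a lipocalin that binds iron-carrying siderophores, showed the fall in 1 population. It read 10.33 and 10.54 in wild-type NCL and 8.07 and 7.87 in knockout NCL. In DP it read 12.20 and 11.67 against 11.61 and 11.80, and in AP and Myo 12.40 to 12.89 in all arrays. NCL was thus the population with the lowest Lcn2 in wild type, and it went lower in the knockout, by 2.46 ± 0.17 (adjusted p = 7.9e-05), while DP differed by -0.23 ± 0.17. The contrast was -1.61 ± 0.16 (adjusted p = 0.00173). The fall in NCL less that in DP was -2.23 ± 0.23 (adjusted p = 0.00436).

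Among the largest negative contrasts, F2r, the thrombin receptor PAR1, led with -3.70 ± 0.74 (adjusted p = 0.0251). It read 9.63 and 7.54 in wild-type NCL, 9.89 and 7.74 in wild-type DP, and 4.16 to 4.92 in all 4 knockout arrays of these cells, where it was near background. In Myo it read 8.82 to 9.69. Its dimmer probe set gave -0.48 ± 0.27, not past the threshold. Sftpd, the collectin surfactant protein D, read 10.41 and 8.47 in wild-type NCL, 9.86 and 8.08 in wild-type DP and 6.02 to 6.67 in the knockout, close to its level in AP and Myo (6.13 to 7.0). For both genes wild-type mouse 1 was the higher one in NCL and DP.

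The other large falls on the Sca1-positive side were of genes with varied roles. Camkk2, a calcium-dependent kinase that activates AMPK, had a contrast of -2.48 ± 0.44, and Selenop, the plasma carrier of selenium, one of -2.45 ± 0.47. The copper-binding ferroxidase gene Cp fell by 3.0 ± 0.29 in NCL and by 1.38 ± 0.29 in DP, for a contrast of -2.42 ± 0.28 (adjusted p = 0.00388). Man2a1, a Golgi mannosidase of N-glycan processing, had -2.38 ± 0.31, and Sema3c, a secreted semaphorin, -2.35 ± 0.31. Sema3c read 7.21 and 7.06 in wild-type NCL and 5.16 and 5.06 in the knockout, while in Myo it read 10.76 to 11.29. Wfdc12, a whey acidic protein domain gene, had -2.31 ± 0.33, and Aldh3a1, an aldehyde dehydrogenase, -2.10 ± 0.35. The imprinted gene Peg3 had -2.14 ± 0.38, with a knockout mean of 4.56 in Sca1-positive cells that was near background. Tgfbr1, a receptor for TGF-beta, had -2.01 ± 0.51 (adjusted p = 0.0449), with knockout mouse 2 the lower one in NCL and DP. The Tgfbr1 contrast was -1.33 with that mouse left out, and -0.51 (adjusted p = 0.696) with the integrity covariate. Further probe sets gave -0.88 to -1.22 for Camkk2 and -1.05 for Sema3c. The NADPH oxidase gene Nox4 combined a fall of 1.74 ± 0.28 in DP with a rise of 1.42 ± 0.28 in Myo, for a contrast of -2.11 ± 0.28.

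Most genes with the largest positive contrasts were higher in NCL and DP of the knockout. Rhbdl2, a rhomboid protease that cuts proteins within the membrane, read 6.82 and 6.50 in wild-type NCL and 8.35 and 8.58 in the knockout, and 5.59 and 6.80 against 8.79 and 8.59 in DP. In AP and Myo it read 4.99 to 6.06, near background in Myo. The contrast was 2.31 ± 0.33 (adjusted p = 0.00775), and a further probe set gave 1.46 ± 0.19. Mal, a proteolipid of apical membrane transport, read 8.08 and 9.01 in wild-type NCL against 10.06 and 10.33, 8.77 and 9.41 in wild-type DP against 10.78 and 10.67, and 9.69 and 9.69 in wild-type AP against 8.62 and 8.94. So Mal moved up in NCL and DP, and in AP the knockout values lay below the wild-type ones. Its contrast was 2.23 ± 0.27 (adjusted p = 0.00444), and that of its relative Mall 1.75 ± 0.35.

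Gadd45g, a stress-response gene of the GADD45 family, read 9.60 and 10.19 in wild-type NCL and 11.48 and 12.17 in the knockout, and 8.65 and 10.13 against 11.95 and 11.98 in DP, with 8.41 to 9.12 in AP and Myo. The contrast was 2.17 ± 0.40 (adjusted p = 0.0193). Gatb, a subunit of the mitochondrial enzyme that finishes glutaminyl-tRNA, had the largest positive contrast, 2.46 ± 0.41 (adjusted p = 0.0145), and read 7.71 to 9.24 in wild-type and 10.45 to 11.14 in knockout Sca1-positive cells. Dus2, which makes dihydrouridine in tRNA, had 1.99 ± 0.33. T-cadherin (Cdh13) had 1.70 ± 0.29, and its other probe sets gave 0.23, 2.82 and 3.5. The sulfotransferase gene Chst8 had 1.66 ± 0.26, with mean levels of 4.74 and 4.67 over AP and Myo in wild type and knockout, near background. Ly6d, a surface protein of the Ly6 family, had 1.64 ± 0.30, Gdap1l1 1.69 ± 0.41, the teneurin Tenm4 1.62 ± 0.38, and the secretory carrier protein gene Scamp4 1.61 ± 0.41. Further probe sets gave 0.65 and 0.30 for Tenm4 and 0.61 for Scamp4.

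A few positive contrasts came wholly or partly from a fall on the other side. Cad, the enzyme of the first steps of pyrimidine synthesis, had a contrast of 2.03 ± 0.42, with 0.96 on the Sca1-positive side and -1.06 on the other, neither past the threshold alone, and its further probe sets gave 0.99 and 1.02. The histone gene H2bc4 had 1.74 ± 0.43, and the difference lay in Myo, where it fell by 2.42 ± 0.44. The glycosyltransferase gene Galnt18 had 1.66 ± 0.33 and fell by 1.15 in AP and Myo (adjusted p = 0.0329).

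**Figure D2:**
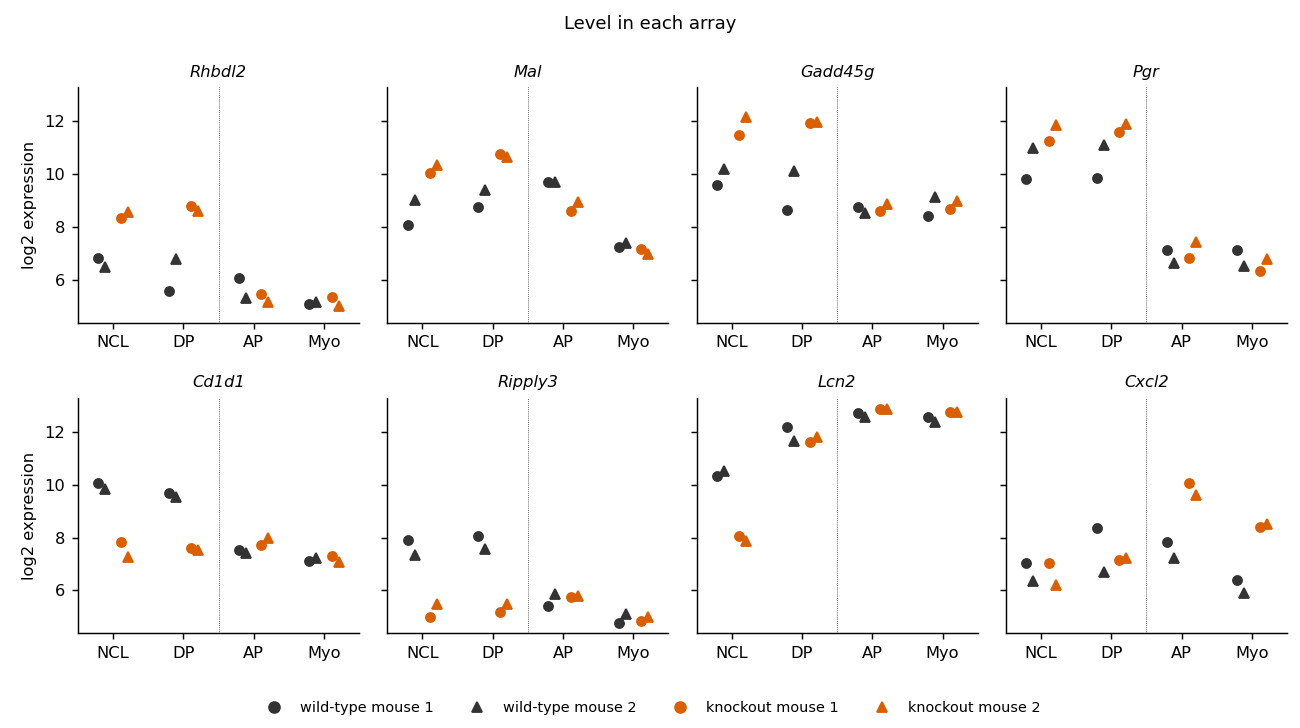
Log2 level in each array for 8 genes, by population, with circles for mouse 1 and triangles for mouse 2 of each genotype (black wild type, orange knockout), and a dotted line between the Sca1-positive populations and the others. In the upper row the knockout values lie above wild type in NCL and DP. Cd1d1 and Ripply3 lie below, Lcn2 is lower in NCL, and Cxcl2 is higher in AP and Myo.

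**Figure D3:**
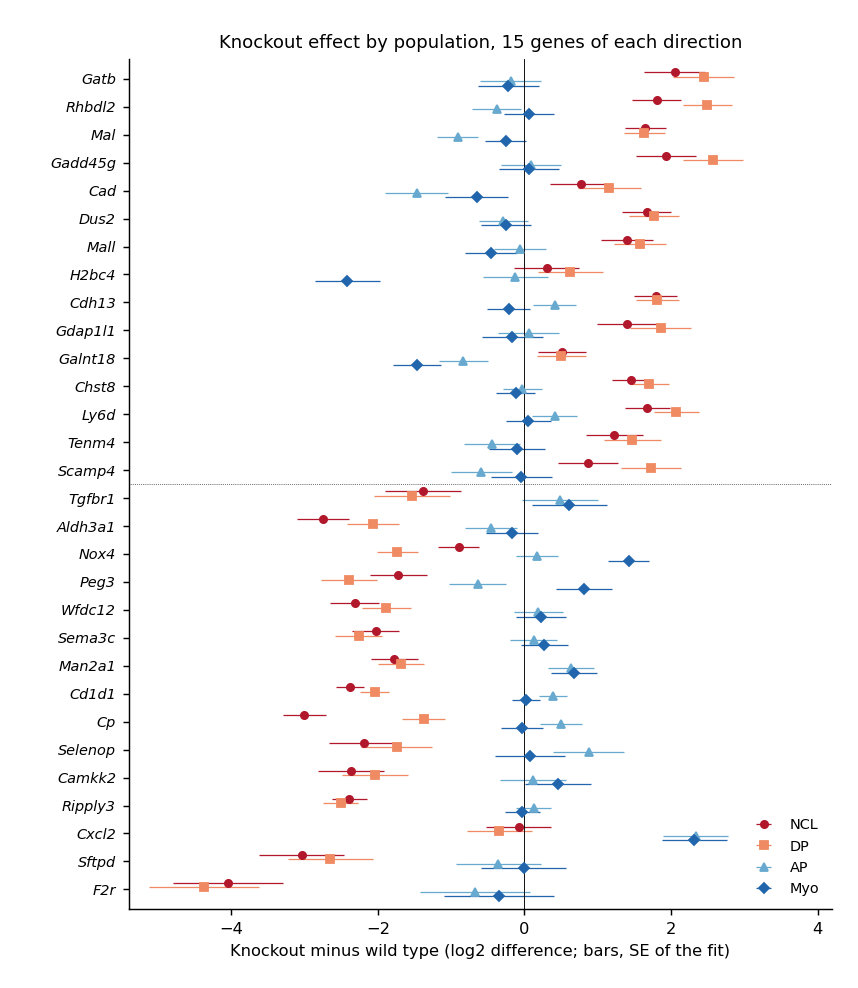
Knockout minus wild-type difference in each population, with the standard error of the fit, for the 15 named genes with the largest positive and the 15 with the largest negative contrasts. For most genes NCL and DP lie together on one side while AP and Myo lie near 0. Cxcl2, H2bc4, Nox4, Galnt18 and Cad are among the exceptions.

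Cxcl2, a chemokine that draws neutrophils and a target of NF-kB, moved on the AP and Myo side. It read 7.82 and 7.24 in wild-type AP and 10.09 and 9.63 in the knockout, and 6.38 and 5.91 against 8.41 and 8.51 in Myo. In NCL it read 7.03 and 6.37 in wild type and 7.04 and 6.21 in the knockout, and in DP 8.37 and 6.72 against 7.16 and 7.24. The genotypes stood apart in AP and Myo and overlapped in NCL and DP. Cxcl2 rose by 2.33 on the AP and Myo side (adjusted p = 0.00550), and the contrast was -2.54 ± 0.43 (adjusted p = 0.0159). The 250 bases upstream of its start hold 2 matches to the kB motif, read as GGG, any 2 bases and TTTCC on either strand, between positions -97 and -69. They are shown with the same window of Lcn2, the listed NF-kB target with the smallest p, and of Rhbdl2, a gene outside that list that was picked because it holds a match. Sequences are from RefSeq, build GRCm38.p6, 5′ to 3′ on the gene's strand, and capitals mark matches on either strand.
Cxcl2 (chr5:90903649-90903898, plus strand): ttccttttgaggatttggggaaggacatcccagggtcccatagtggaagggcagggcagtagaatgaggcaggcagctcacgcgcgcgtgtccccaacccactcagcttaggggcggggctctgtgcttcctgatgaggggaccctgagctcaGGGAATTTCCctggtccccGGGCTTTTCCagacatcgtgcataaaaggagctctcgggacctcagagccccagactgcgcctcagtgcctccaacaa
Lcn2 (chr2:32387740-32387989, minus strand): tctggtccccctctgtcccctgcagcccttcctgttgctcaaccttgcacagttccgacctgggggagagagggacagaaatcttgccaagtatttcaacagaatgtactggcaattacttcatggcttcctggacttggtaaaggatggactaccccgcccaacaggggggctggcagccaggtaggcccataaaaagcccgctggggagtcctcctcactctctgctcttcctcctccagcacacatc
Rhbdl2 (chr4:123787625-123787874, plus strand, the first of 2 starts in the table): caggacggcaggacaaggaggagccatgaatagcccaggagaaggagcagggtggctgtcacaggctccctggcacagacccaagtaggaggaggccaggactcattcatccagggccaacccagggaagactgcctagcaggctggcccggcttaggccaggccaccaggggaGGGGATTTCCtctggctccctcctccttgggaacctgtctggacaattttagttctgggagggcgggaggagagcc
Lcn2 has 0 matches in this window and Rhbdl2 has 1, between -76 and -67. The motif was found in such a window of 447 of 27025 genes (1.65%), and of 230 of the 13605 measured genes with one (1.69%). The share was 20 of the 645 called genes with a window (3.10%), and 9 of the 26 listed NF-kB targets with one (34.6%). That list was written as one of NF-kB targets, and the shares were not tested against each other. A match is a run of letters and not a measured binding site.

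The list of NF-kB targets and inflammatory cytokines had more negative contrasts than positive ones. Of its 35 measured members 0 were called positive and 5 negative, where 2.54% of all genes were called negative, and the median contrast was -0.41, against 0.07 over all genes. The median knockout effect was -0.02 on the Sca1-positive side and 0.27 on the other. The mean level of the list, NCL and DP less AP and Myo, was -0.18 and -0.39 in the wild-type mice and -0.82 and -0.76 in the knockout mice, so the genotypes did not overlap. Taken singly, 26 of the 35 members had no overlap, beside 53.1% of all genes. Beside Cxcl2 and Lcn2, the called members were Lrg1, a secreted acute-phase glycoprotein, at -1.43 ± 0.33, and the acute-phase protein genes Saa1 at -1.06 ± 0.27 and Saa3 at -0.53 ± 0.12, the latter named after its value was seen. Lrg1 moved in AP, where it read 9.09 and 8.43 in wild type and 10.54 and 10.72 in the knockout. Saa1 read 6.57 and 5.28 in wild-type NCL and 5.32 or less, near background, in all other arrays, and its contrast was -0.65 without wild-type mouse 1. Among immediate early and dissociation stress genes, 0 of 33 were called, and the lowest p belonged to Fosl1 at -1.01 ± 0.27 (adjusted p = 0.0523), an AP-1 subunit that rose by 1.27 in AP and Myo (adjusted p = 0.00927). A further probe set of Fosl1 gave -1.73 ± 0.33, past the threshold over all probe sets.

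Further genes passed the threshold on the AP and Myo side alone. Smpdl3a, a phosphodiesterase gene related to acid sphingomyelinase, rose there by 1.03, the exchange factor gene Arhgef6 by 0.97 and Abtb2 by 1.13, with contrasts of -1.56, -1.55 and -1.44. The other probe set of Abtb2 gave -0.27 ± 0.19, not past the threshold, and its main value was -0.88 without knockout mouse 1. Arhgef6 rose in AP, reading 8.13 and 8.33 in wild type and 9.92 and 10.15 in the knockout, and the genotypes overlapped in Myo. Its knockout values were lower in NCL (7.07 and 6.33 against 7.48 and 7.42) and in DP (7.29 and 7.25 against 7.96 and 7.37). There were 4 genes that fell on the Sca1-positive side and rose on the other, each past the threshold on both. These were Naaladl2, with -0.64 and 0.87, Spag9, a scaffold of JNK signalling and motor proteins, with -0.45 and 1.01, the transcription factor gene Glis3, with -0.47 and 0.93, and Myo5b, the motor of recycling endosomes, with -0.48 and 0.73. Their contrasts were -1.51 ± 0.18, -1.46 ± 0.18, -1.40 ± 0.20 and -1.20 ± 0.20. Myo5b rose in Myo, reading 7.70 and 7.70 in wild type and 9.02 and 9.01 in the knockout. In AP it read 9.40 and 9.32 against 9.67 and 9.32, with overlap. A further probe set of Myo5b gave 0.10 and another -0.68, so the size for Myo5b depends on the probe set.

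In the progesterone and RANKL list, 3 of 14 members were called positive, beside 2.17% of all genes, and 0 negative, with a median contrast of 0.59. The members called had fallen in AP or Myo. Adamts18, a protease of the basement membrane, read 8.4 and 8.35 in wild-type Myo and 6.99 and 6.30 in the knockout. It was near background in the other populations (4.30 to 4.50), so no change could be seen there, and its contrast of 0.90 ± 0.16 is a change in Myo alone. Rspo1, a secreted enhancer of Wnt signalling, read 7.69 and 7.6 in wild-type AP and 5.07 and 5.31 in the knockout, and 6.06 and 5.21 against 4.44 and 4.44 in DP. It was near background in NCL and Myo, and its contrast was 0.76 ± 0.19 (adjusted p = 0.0440) although it fell on both sides. With Myo alone as the other side, the contrast of Rspo1 turned to -0.40. Tnfrsf11b, the RANKL decoy receptor osteoprotegerin, fell by 0.83 ± 0.15 in Myo and had a contrast of 0.73 ± 0.14 (0.32 in a further probe set near background).

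The progesterone receptor gene Pgr read 9.84 and 10.98 in wild-type NCL and 11.27 and 11.85 in the knockout, and 9.84 and 11.11 against 11.61 and 11.89 in DP, with 6.34 to 7.43 in AP and Myo. The genotypes did not overlap in NCL or DP, and wild-type mouse 1 was the lowest. Pgr rose by 1.21 on the Sca1-positive side (adjusted p = 0.0263), but its contrast of 1.22 ± 0.44 was not past the threshold (adjusted p = 0.119). It was 0.35 without wild-type mouse 1, and 2.09 and past the threshold without wild-type mouse 2 (adjusted p = 0.00682). Its other probe sets gave 1.94 ± 0.30, past the threshold over all probe sets, and 0.02 ± 0.30. Of 15 hormone-sensing luminal markers 1 was called positive, Ly6d, and 1 negative, Tox3, at -0.92 ± 0.16, beside 2.17% and 2.54% of all genes. Tox3 fell to 4.26 to 4.89 in the knockout, near background, and read 4.0 to 4.24 in AP and Myo. Of 18 estrogen response genes 0 were called, and the lowest p belonged to the chemokine gene Cxcl12 at -0.81 ± 0.24 (adjusted p = 0.0686).

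Of the 29 Wnt genes measured, 4 were called positive and 1 negative, beside 2.17% and 2.54% of all genes, and the median contrast was 0.10. Apart from Rspo1, these were the ligand gene Wnt6 at 0.40 ± 0.09 (named after its value was seen), the co-receptor gene Lrp5 at 0.81 ± 0.21, the feedback gene Axin2 at 0.54 ± 0.12, and the receptor-degrading ligase gene Znrf3 at -0.99 ± 0.25, whose other probe set gave 0.09. Without wild-type mouse 1 the contrast was 0.48 for Lrp5 (adjusted p = 0.220) and -0.55 for Znrf3 (adjusted p = 0.195). In the Notch list the ligand gene Dll4 was called positive (0.71 ± 0.17) and the coactivator gene Maml1 negative (-0.92 ± 0.22, other probe set 0.01), of 21. Of the 18 genes of the EGF family 0 were called, and Nrg4 and Hbegf had contrasts of 1.01 ± 0.27 and -1.01 ± 0.28 (adjusted p = 0.0552 and 0.0600).

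Genes of mitosis and DNA synthesis fell in the knockout, more of them past the threshold on the Sca1-positive side, but nearly none had a contrast past it. Of 48 mitosis genes 43 were called lower on the Sca1-positive side and 6 on the other, with median effects of -2.07 and -1.30. Among all 17097 genes, 1599 were called lower on the Sca1-positive side and 231 on the other. In the contrast 0 of 48 were called, with a median of -0.81 and 45 negative values. Birc5, the survivin subunit of the mitotic passenger complex, had -1.99 ± 0.58 (adjusted p = 0.0674) and Trip13, a checkpoint ATPase, -1.38 ± 0.49 (adjusted p = 0.114). The mean level of the list, NCL and DP less AP and Myo, was 1.87 in wild-type mouse 1, -0.10 in wild-type mouse 2, and 0.23 and -0.05 in the knockout mice. Wild-type mouse 2 had high mitosis genes in all 4 populations, at 8.13 to 8.60 on average, whereas wild-type mouse 1 had 8.65 and 8.75 in DP and NCL and 7.05 and 6.61 in AP and Myo. With wild-type mouse 1 left out the median contrast was 0.22 with 1 gene called, and with wild-type mouse 2 left out it was -1.83 with 39 called. Of 43 S phase genes 38 fell on the Sca1-positive side and 19 on the other, and 1 had a contrast past the threshold, the replication licensing factor Cdt1 at -1.61 ± 0.33, and its other probe sets gave -0.86 and 0.05. The contrast of Cdt1 was -0.94 without wild-type mouse 1. Of 27 genes of homologous and Fanconi repair 0 were called, with 2 at an unadjusted p under 0.05. Rb1, the retinoblastoma gene, was called among cell cycle regulators at -1.53 ± 0.26, but its other probe set, near background, gave 0.33 ± 0.08, past the threshold in the opposite direction.

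**Figure D4:**
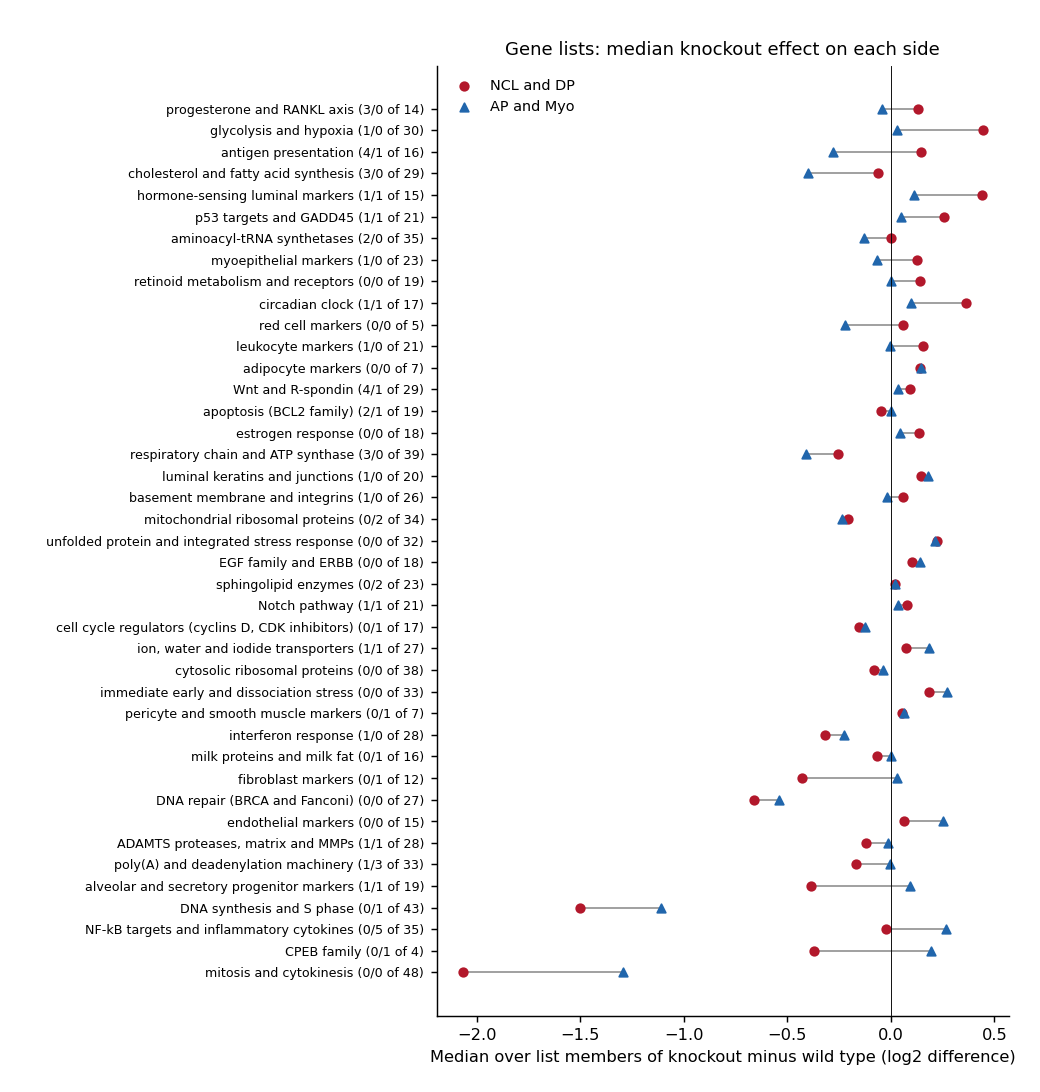
Median knockout minus wild-type difference over the measured members of each list, in NCL and DP (circles) and in AP and Myo (triangles), ordered by the median contrast, with the members called positive and negative, and the number measured, in brackets. Mitosis and DNA synthesis lie low on both sides, and most other lists lie within 0.5 of 0.

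The counts in the metabolic lists stand beside 2.17% of all genes called positive and 2.54% called negative. In cholesterol and fatty acid synthesis 3 of 29 were called positive and 0 negative, with a median contrast of 0.41. These were Dgat2, which makes triacylglycerol, at 1.29 ± 0.31, and the sterol enzymes Ebp and Sc5d at 0.96 ± 0.22 and 0.93 ± 0.21. The median effect was -0.06 on the Sca1-positive side and -0.40 on the other. For glycolysis and hypoxia the median was 0.53, and 26 of 30 values were positive, but 1 was called, pyruvate kinase Pkm at 0.70 ± 0.18 (adjusted p = 0.0475). Over the 37 alternatives the median of this list ran from -0.22 to 0.82 and kept its sign in 36. In the respiratory chain 3 of 39 were called positive. Ndufv1, a complex I subunit, fell by 0.90 ± 0.11 in Myo and had a contrast of 0.68 ± 0.11, and Uqcrc1 and Atp5a1 had 0.66 ± 0.15 and 0.63 ± 0.16, the latter 0.39 without wild-type mouse 1. Of 34 mitochondrial ribosomal proteins 2 were called negative, Mrps25 at -0.67 ± 0.16 and Mrpl19 at -1.36 ± 0.32. The other 3 probe sets of Mrpl19 gave 0.19 to 0.43, so its direction depends on the probe set, and those of Mrps25 gave -0.11 and -0.42. Of 35 aminoacyl-tRNA genes and relatives 2 were called positive, Gatb and Lars2 (0.72 ± 0.18). Of 38 cytosolic ribosomal proteins and 32 unfolded protein response genes 0 were called, with 1 and 7 at an unadjusted p under 0.05. In the sphingolipid list Degs1, a ceramide desaturase, and Asah2, a ceramidase, were called negative at -1.53 ± 0.33 and -1.04 ± 0.14, of 23, with -0.37 in a further probe set of Asah2.

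Since Cpeb2 acts on poly(A) tails, the genes of that machinery were looked at. Of 33 measured, 1 was called positive and 3 negative, with a median of -0.19. The cleavage factor subunit Cpsf1 had 0.67 ± 0.16. The deadenylase Cnot7 had -0.85 ± 0.17 (-0.25 and -0.39 in further probe sets), the poly(A) polymerase Tent4b -0.82 ± 0.20 and the poly(A) binding protein Pabpc1 -0.51 ± 0.13. The share called, 4 of 33, stands beside the 4.71% of all genes.

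For antigen presentation 4 of 16 genes were called positive and 1 negative, Cd1d1, beside 2.17% and 2.54% of all genes. The median contrast of the list was 0.46. The class I gene H2-D1, named after its value was seen, had 0.66 ± 0.14. The immunoproteasome subunits Psmb8 and Psmb10 had 1.32 ± 0.29 and 1.19 ± 0.29. Cd74, the invariant chain of class II molecules, read 8.90 and 8.93 in wild-type Myo and 7.69 and 7.76 in the knockout, with 6.61 to 7.36 in all other arrays, so its contrast of 0.80 ± 0.16 was a fall in Myo. Psmb8 was also the only interferon response gene called, of 28. In the apoptosis list Bcl2l1, which encodes the survival protein BCL-XL, had 1.06 ± 0.27 (adjusted p = 0.0499), the BH3 protein gene Bmf 0.61 ± 0.14 and the caspase inhibitor gene Xiap -1.01 ± 0.17, of 19. Further probe sets gave 0.13 and 0.78 for Bmf and -0.82 to 0.13 for Xiap (6 sets), none past the threshold. The p53 target Tigar had -0.96 ± 0.22, and its other probe sets gave -0.09 and -0.13.

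The counts in the lineage lists stand beside 4.71% of all genes called in either direction. Of 23 myoepithelial markers 1 was called, Krt5 at 0.68 ± 0.16, which read 8.39 and 8.24 in wild-type AP, 7.70 and 7.68 in knockout AP and 13.01 to 13.11 in Myo. Of 20 luminal keratin and junction genes 1 was called, Prom2 at 1.5 ± 0.29. Of 19 alveolar and secretory progenitor markers 1 was called in each direction, Rspo1 and the transcription factor gene Tfap2c (-0.97 ± 0.19), with 17 negative values and a median of -0.24. The mean level of this list, NCL and DP less AP and Myo, was -0.85 and -1.19 in the wild-type mice and -1.37 and -1.41 in the knockout mice, without overlap. Taken singly, 11 of the 19 members had no overlap between the genotypes, beside 53.1% of all genes. A further probe set of Tfap2c gave -0.29. In the milk list Muc15, a membrane mucin, was called at -1.04 ± 0.20, of 16. Muc15 read 8.76 and 8.13 in wild-type DP and 5.28 and 5.50 in the knockout, whereas in NCL it read 4.25 to 4.37, near background, in both genotypes. Knockout values were also lower in AP, at 9.35 and 9.60 against 9.82 and 10.30 in wild type. In Myo, near background, they were 4.45 and 4.46 against 5.04 and 4.78. Muc15 fell by 3.05 ± 0.21 in DP (adjusted p = 8.91e-05), beside the lower Kit and Elf5 in that gate.

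Lists of matrix, transport and clock genes each held 1 or 2 called members of 17 to 28 measured, beside 4.71% of all genes. The metalloproteinase inhibitor gene Timp1 had -1.23 ± 0.23. The laminin chain gene Lama1 read 10.18 and 10.40 in wild-type Myo and 8.65 and 8.95 in the knockout, with 6.41 to 6.89 in all other arrays, and its contrast was 0.92 ± 0.17. Clic6, a chloride channel family member, read 8.89 and 9.13 in wild-type AP and 10.68 and 10.93 in the knockout (contrast -1.0 ± 0.14). Atp6v1c2, a proton pump subunit, read 6.35 and 6.75 against 4.86 and 4.73 there and was near background elsewhere (contrast 0.95 ± 0.15). The clock repressor genes Cry1 and Bhlhe41 had -1.26 ± 0.28 and 0.95 ± 0.21. Of 19 retinoid genes 0 were called, with 3 at an unadjusted p under 0.05.

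The contrast was also taken between single populations, and fewer genes passed there. The NCL effect less the AP effect was called for 44 genes (0.257%), NCL less Myo for 30 (0.175%), DP less AP for 41 (0.24%) and DP less Myo for 329 (1.92%). These comparisons share arrays. The effect of knockout differed between NCL and DP for 2 genes, Lcn2 and Muc15, and between AP and Myo for 27. Muc15 was near background in NCL.

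**Figure D5:**
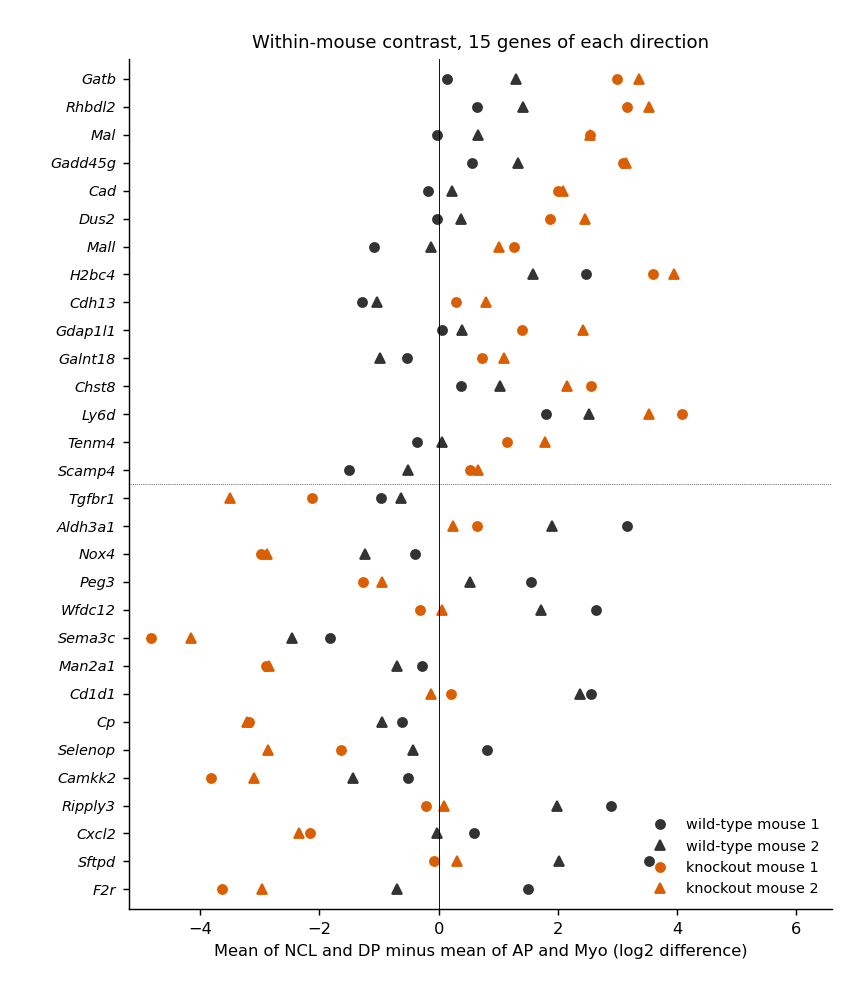
Mean level in NCL and DP minus that in AP and Myo within each mouse (log2), for the 15 named genes with the largest positive and the 15 with the largest negative contrasts, with wild-type mice in black and knockout mice in orange. The genes were chosen among those whose mice did not overlap between the genotypes, so the lack of overlap here was fixed by that choice. The wild-type mice lie further apart than the knockout mice for F2r, where they read 1.49 and -0.69.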

How the data were processed

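RNA from sorted mammary epithelial cells of 4 mice was hybridised to 16 Affymetrix arrays. The deposited values are log2 expression values per probe set. RMA and limma are named in the submitters' processing notes, with no role or version, and no source used here gives further steps. Each array took 15 ng of total RNA and 8 µg of cDNA, per the labels. Of 45141 probe sets, 28898 had 1 gene symbol, 551 several and 15588 none, and 104 were controls. The brightest probe set stood for each of 17097 genes. Of the named probe sets, 28689 matched the gene table of GRCm38.p6 by Entrez identifier. Array medians were 6.35 to 6.40 and replicate correlations 0.977 to 0.992.

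limma 3.58.1 (R 4.3.3, statmod 1.5.0) fitted 8 group means to all 16 arrays, with the mouse as a random block (consensus correlation 0.0383) and a trend in eBayes. Calls were made at a Benjamini-Hochberg adjusted p under 0.05 over all genes. The script was tested on simulated data. Same-numbered mice share parents, per the labels, which is where the pairing comes from. Deviations of paired arrays from their group means correlated at 0.07, -0.01, 0.06 and -0.04 in NCL, DP, AP and Myo. Replicates are separate mice. The 42 gene lists, the comparison and the naming rule were chosen with earlier results of these data known. Genes named are the CPEB family, the sort antigens and Tnfsf11, and up to 15 genes of each direction by size among those whose mice did not overlap and whose parent pairs had the same sign. It also names the 5 smallest p-values, up to 4 called members of each list (or up to 2 by smallest p where none was called), and up to 5 genes by size of each class. Of the called genes, 46 had no established symbol and are counted only. Of the 389 called genes with several probe sets, 330 had others of the same sign in the median. Alternatives covered the block, pairing, weights, trend, probe set choice, filter, scaling and left-out arrays, mice and populations. The covariate for RNA integrity was chosen after the data were seen.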

Additional observations from a re-analysis of the deposited data

Results flagged for a closer look

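The knockout effect differed between the Sca1-positive cells and the other cells for 806 genes in the fit over arrays. With 1 value a mouse limma called 0 genes, and with the integrity covariate 2. Of the 806, 4 moved past the threshold in opposite directions on the sides, Naaladl2 at -1.51, Spag9 at -1.46, Glis3 at -1.40 and Myo5b at -1.20. The rise of Myo5b lay in Myo, and its genotypes overlapped in AP. Within the Sca1-positive side, the effect in NCL less that in DP differed for Lcn2 (-2.23) and Muc15 (2.99). Muc15 had means of 4.36 and 4.30 in wild-type and knockout NCL, near background, so no fall could be seen there. Within the other side, the effect in AP less that in Myo differed for 27 genes (limma, adjusted over all genes). For these genes a mean over AP and Myo joins unlike effects. The monoamine oxidase gene Maob rose by 1.5 in AP and fell by 1.78 in Myo, which leaves little in the mean. The transcription factor gene Foxi1 rose by 2.03 in AP and differed by 0.05 in Myo, and the sodium channel subunit gene Scnn1b rose by 1.67 in AP and differed by -0.19 in Myo. The extracellular matrix gene Reln fell by 1.59 in Myo, the Wnt inhibitor gene Wif1 by 1.41 and the glutathione peroxidase gene Gpx2 by 1.76, with differences of 0.00, -0.04 and 0.12 in AP. Foxi1 in Myo had means of 4.63 and 4.68 in wild type and knockout, and Wif1 in AP 3.98 and 3.94. Both lay near background, so a fall there could not be seen. These 6 genes, from Maob on, were picked after their values were seen.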

How the results depend on the processing

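The sign of the contrast held in all 806 called genes under the block, weight, trend, scaling and covariate settings and without any single mouse or array, which for left-out mice follows from the mice not overlapping. The number of calls did not hold. With 806 genes called (371 positive, 435 negative), single arrays or mice left out gave 1 to 2632 (0 to 1215 and 1 to 1417). The range was 233 to 4246 for the Sca1-positive side (2916), 6 to 1228 for the other side (354; without wild-type mouse 1 this side had more calls, 1228 against 995), 3 to 264 for NCL less AP (44), 1 to 446 for NCL less Myo (30), 0 to 1340 for DP less AP (41) and 0 to 2076 for DP less Myo (329). With 1 array left out of a group, the lone array is assumed to vary like the others. Left-out single arrays alone gave 100 (AP of knockout mouse 1) to 1967 (DP of wild-type mouse 2). With the parent pair as a fixed replicate block the contrast had 695 calls, 626 of them among the 806, and the other side 621. With the pair as a block within each population it had 173 (62 positive, 111 negative), the other side 210, and the single comparisons in the above order 16, 9, 2 and 39. With 1 value a mouse, limma called 0 (0 and 0; 2666 at an unadjusted p under 0.05). The integrity covariate left 2 (0 and 2; 1718 unadjusted), with 247 and 225 on the sides and 6, 2, 0 and 0 in the single comparisons. Taking AP alone as the other side gave 92 (25 and 67), Myo alone 461 (205 and 256), and NCL or DP alone as the Sca1-positive side 37 (5 and 32) and 419 (181 and 238). Every named probe set as a feature gave 1322 (800 negative), 4734 on the Sca1-positive side, and 68, 62 and 552 for NCL less Myo, DP less AP and DP less Myo. The mouse as a fixed effect gave 1878 and 155 on the sides, array weights 70, 19, 97 and 30 in the single comparisons, no mouse block 217 for DP less Myo, and the mean of probe sets 59 for NCL less Myo. Of the 90 called genes that the naming rule gave, 88 kept their sign in all 37 alternatives. Rspo1 turned to -0.40 with Myo alone and Muc15 to 0.45 with NCL alone as its side. The cause of these shifts was not tested. Genes under the lower quartile (5.12) give a bound only.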
